A study of Mus musculus with 8 samples.

Results

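The C-type lectin receptors are a family of carbohydrate-binding and related receptors with which macrophages, dendritic cells and liver endothelium take up glycoproteins and sense microbes and dead cells. Their members were taken by symbol: every gene whose name starts with Clec and a digit or with Cd209 and a letter from a to g, together with Cd207, Mrc1, Mrc2 and Cd302. This gave 43 members of the 21968 genes in the data, 39 by the pattern and 4 by name. The rule used no measured value. The name is wider than the function: Clec3a, Clec3b, Clec11a and Clec18a encode secreted proteins, and Clec16a encodes an intracellular protein of the endolysosomal system that is no lectin receptor.

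The libraries came from Lgr5-LacZ transgenic mice on a mixed C57BL/6 and CBA background, in which LacZ reports Lgr5, a receptor of the Wnt pathway. All groups shared the transgene and the injury, 1 intraperitoneal dose of carbon tetrachloride (CCl4) at 1 µl per g body weight in rapeseed oil, with livers taken at 6 days. No untreated group was analysed here, so the values describe cell groups in an injured liver and not the effect of the toxin. The 4 groups were F4/80high cells of the b-gal+ kind, F4/80high cells of the b-gal- kind, EpCAM-positive cells, and hepatocytes. Each had n = 2 libraries, and a library pools cells of 2 mice. The first pair was sorted with an antibody to the macrophage antigen F4/80 and FDG, a fluorogenic substrate that detects any β-galactosidase activity, endogenous or from LacZ. The EpCAM-positive cells, cholangiocytes in the words of the series, were sorted with an antibody to EpCAM, and hepatocytes were collected by pelleting at low speed. Mice were 10 to 12 weeks old by the sample labels and 7 to 12 weeks by the series text. Nothing in the labels says that libraries came from separate mice, so p-values measure only the spread between these libraries.

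C-type lectin receptors fold around a calcium-dependent carbohydrate-recognition domain, or around a related domain that binds proteins and lipids. The mannose receptor, langerin, the Cd209 (DC-SIGN related) receptors and the galactose-binding Clec4f and Clec10a mainly take ligands into the cell. Dectin-1 (Clec7a), Dectin-2 (Clec4n), Mincle (Clec4e) and their relatives signal through the kinase Syk and the adaptor Card9, either from a motif of their own or through the adaptor chain Fcer1g, whereas Clec4a2 and Clec12a carry inhibitory motifs that recruit phosphatases such as Ptpn6. In the mouse liver Clec4f is the classical lectin of Kupffer cells, the resident macrophages of the sinusoids, and Clec4g, Mrc1 and Cd209b are known from sinusoidal endothelial cells.

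The promoters of 3 members are shown, those of the neighbouring pair that holds the most abundant lectin of b-gal+ cells and that of the member that fell most in b-gal+ relative to b-gal- cells. Clec4f and Cd207 lie next to each other on chromosome 6 with 15027 bases between them and were highest in b-gal+ cells, and Clec14a, an endothelial receptor, was highest in b-gal- cells. Each window runs from 250 bases before to 50 bases after the RefSeq start site in GRCm38.p6, all on the minus strand, at chr6:83656067-83656366 for Clec4f, chr6:83677808-83678107 for Cd207 and chr12:58269209-58269508 for Clec14a. Capitals mark any match, on either strand, to the short core motifs of 5 families of transcription factors, PU.1, RBPJ, MAF, ETS and GATA.
Clec4f: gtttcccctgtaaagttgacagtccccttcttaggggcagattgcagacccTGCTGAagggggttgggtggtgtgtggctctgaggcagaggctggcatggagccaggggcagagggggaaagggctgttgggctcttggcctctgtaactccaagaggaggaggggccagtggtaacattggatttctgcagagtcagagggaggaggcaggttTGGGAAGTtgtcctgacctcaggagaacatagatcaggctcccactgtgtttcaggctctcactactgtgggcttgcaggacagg
Cd207: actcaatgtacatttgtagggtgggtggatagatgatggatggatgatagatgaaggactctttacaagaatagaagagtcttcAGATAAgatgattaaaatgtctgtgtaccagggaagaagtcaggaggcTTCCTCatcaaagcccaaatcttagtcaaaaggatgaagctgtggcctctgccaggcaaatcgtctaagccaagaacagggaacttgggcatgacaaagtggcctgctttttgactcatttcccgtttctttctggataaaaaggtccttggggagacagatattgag
Clec14a: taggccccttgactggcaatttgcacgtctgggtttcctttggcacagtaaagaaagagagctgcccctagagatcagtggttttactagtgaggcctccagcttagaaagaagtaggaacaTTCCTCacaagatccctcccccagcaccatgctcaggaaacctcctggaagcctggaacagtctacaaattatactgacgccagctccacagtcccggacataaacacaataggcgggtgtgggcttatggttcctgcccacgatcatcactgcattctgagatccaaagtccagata

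The Clec4f window held the RBPJ letters 35 bases before the start and the ETS letters 33 bases before it, overlapping as 1 run, and the MAF letters 199 bases before it. The Cd207 window held the PU.1 letters on the opposite strand 118 bases and the GATA letters 166 bases before the start. In the Clec14a window the PU.1 letters stood on the opposite strand 128 bases before the start, and none of the other 4 motifs matched. RefSeq windows were matched for 35 of the 43 members, 38 windows in all. The PU.1 letters (GAGGAA) were in 50% of these windows and in 28.3% of all 32851 windows of the same length. The MAF letters (TGCTGA) were in 34.2% of the member windows and in 19.5% of all. The RBPJ letters (TGGGAA) were in 21.1% of the member windows and in 25.6% of all. The ETS letters (GGAAGT), which can overlap those of RBPJ, were in 18.4% and in 23.8%. The GATA letters (AGATAA) were in 10.5% and in 11.2%. Such short matches are a description of the letters and not of binding.

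Levels are given in CPM, reads scaled to a common library size, after TMM scaling, and a difference is log2 of the CPM + 0.5 in the first group minus that in the second, from a limma fit over all 14404 genes that passed the filter on low counts. A gene is called at an adjusted p under 0.05. Of the 43 members, 36 were tested and 34 reached a mean of 1 CPM in at least 1 group. The 9 others were Cd209e, Clec2e, Clec2f, Clec2g, Clec2h, Clec2l, Clec4b2, Clec18a and Clec3a. They had at most 28 reads in a library, and Clec18a and Clec3a had 0 reads in all 8, which allows up to 0.122 to 0.177 CPM before scaling (3 reads). Clec2g and Clec2h were tested; the other 7 did not pass the filter.

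The libraries did not match their gates in every respect, and this touches most results below. The 14 Kupffer cell markers, none of them a lectin of the family, summed to 27946 to 34411 CPM in b-gal+ libraries, 2614 to 3546 CPM in b-gal-, 464 to 1222 CPM in EpCAM-positive and 841 to 853 CPM in hepatocyte libraries. Of these 14, 12 were higher and 1 lower in b-gal- cells than in hepatocytes (85.7% and 7.14%, beside 33.5% and 29.7% of all genes). How much of the hepatocyte and EpCAM-positive sums came from Kupffer cells was not tested. The 16 markers of sinusoidal endothelium summed to 4811 to 6086 CPM in b-gal+, 33430 to 39662 CPM in b-gal-, 12441 to 14433 CPM in EpCAM-positive and 764 to 1747 CPM in hepatocyte libraries. None of these 30 markers was at 0 reads in any library. Adgre1, which encodes F4/80, stood at 1731 and 1361 CPM in the b-gal+ libraries, against 311 and 134 CPM in the b-gal- libraries, although both were gated as F4/80high. Epcam reached 88.5 and 214 CPM in the EpCAM-positive libraries and at most 1.47 CPM elsewhere. In such bulk libraries fewer cells of a type and less RNA per cell cannot be told apart, and how far other cells carried each lectin was not tested. Depth was 16948568 to 24549242 reads per library.

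Together the 43 members took 13414 and 15155 CPM in the b-gal+ libraries, 6790 and 7485 CPM in the b-gal- libraries, 3127 and 2319 CPM in the EpCAM-positive libraries, and 1049 and 1042 CPM in hepatocytes. Clec4f alone made up 63.6% and 67.6% of the lectin CPM in the b-gal+ libraries. Without it the b-gal+ sums were 4884 and 4917 CPM, below the b-gal- sums of 6353 and 6919 CPM. Of the 36 tested members, 15 had their highest mean in b-gal+ cells, 11 in b-gal- cells, 6 in EpCAM-positive cells and 4 in hepatocytes.

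**Figure D1:**
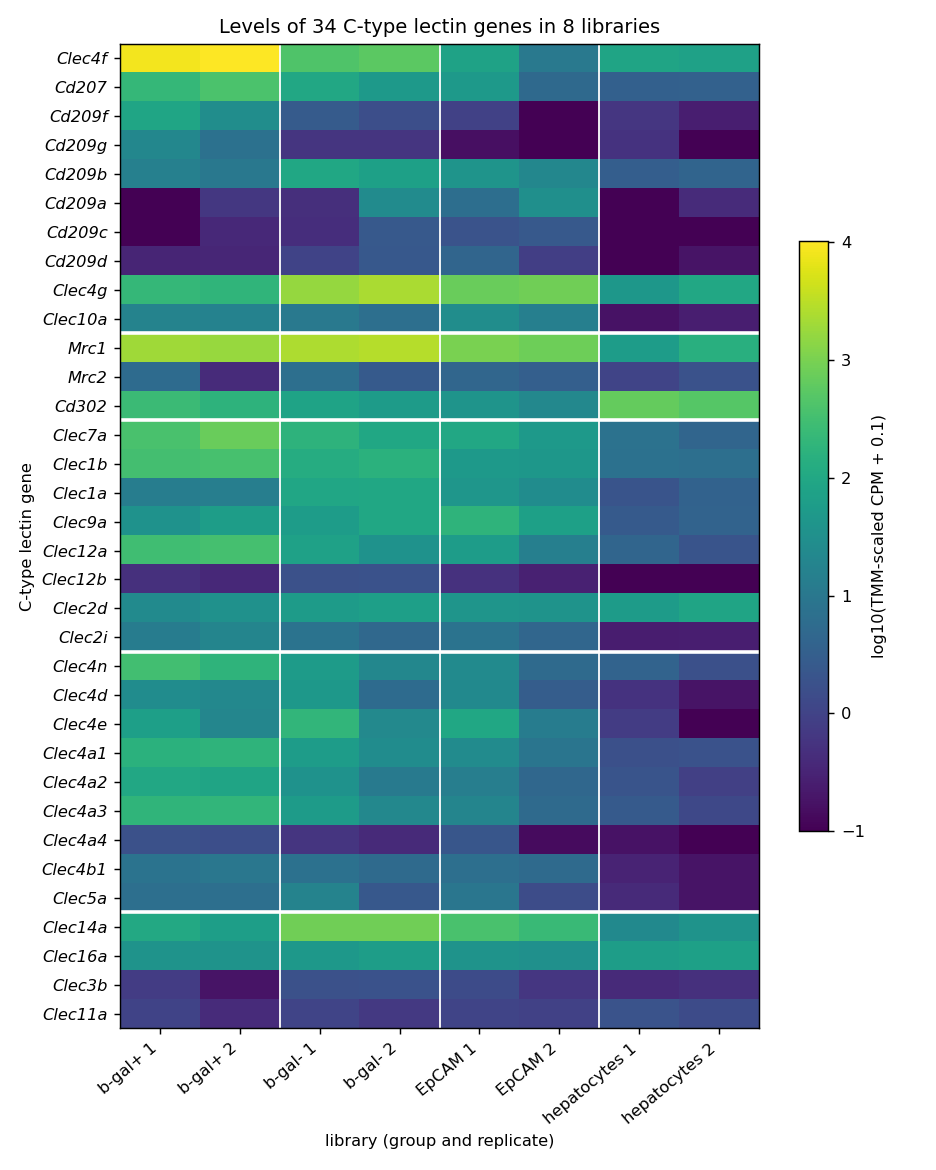
Level of the 34 members that reached 1 CPM, 1 row per gene and 1 column per library, as log10 of TMM-scaled CPM + 0.1. Clec4f is brightest in the b-gal+ columns and Clec4g and Clec14a in the b-gal- columns, while Cd302 is brightest in hepatocytes.

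Levels of different genes can be set side by side only per exon length. Per kilobase of exon (GENCODE M21), b-gal+ cells held 3798 ± 489 CPM of Clec4f (SD, n = 2), then 290 ± 22.0 of Mrc1, 208 ± 92.5 of Clec7a, 200 ± 76.6 of Cd207, 175 ± 63.1 of Clec4n and 160 ± 41.5 of Cd302. The last 4 of these lie within their spread of each other, and the spreads of Clec7a and Cd207 also reach that of Mrc1. In b-gal- cells the order was Clec4g at 802 ± 202 CPM per kilobase, Mrc1 at 414 ± 37.5, Clec4f at 203 ± 37.1 and Clec14a at 183 ± 1.16. EpCAM-positive cells had the order Clec4g at 317 ± 23.3, Mrc1 at 142 ± 23.4, Clec14a at 68.3 ± 18.4 and Clec9a at 38.6 ± 24.1. Hepatocytes were led by Cd302 at 432 ± 91.0 CPM per kilobase, followed by Clec2d at 57.5 ± 15.6, Clec4f at 32.0 ± 3.68 and Clec4g at 29.6 ± 16.4.

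The first comparison sets b-gal+ against b-gal- libraries of the F4/80high gate, which also differed in their Kupffer cell and endothelial marker sums. Of the members, 10 rose and 6 fell in b-gal+ relative to b-gal- cells. The higher genes were Clec4f, Cd209f, Cd209g, Cd302, Dectin-1 (Clec7a) with its neighbours Clec12a and Clec1b, and Dectin-2 (Clec4n) with Clec4a1 and Clec4a3. The lower genes were Clec14a, Clec4g, Clec1a and Cd209b, all known from endothelium, and Clec2d and Clec12b. The 10 higher members are 27.8% of those tested, beside 10.4% of all 14404 genes, and the 6 lower ones 16.7%, beside 13%. The median difference was 0.13 over the members and -0.02 over all genes. With 2 libraries a group a lack of overlap is common. Of the 36 tested members, 16 lay higher and 11 lower in both b-gal+ libraries than in either b-gal- library. Among all 14404 genes, 4864 (33.8%) lay higher and 5077 (35.2%) lower. Of the 16 calls, 7, those of Cd209f, Cd209g, Clec1b, Clec14a, Clec4g, Clec1a and Cd209b, were kept in all 15 alternatives tried, and the other 9 were lost in at least 1.

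Clec4f, a galactose-binding lectin of mouse Kupffer cells, had 8530 and 10238 CPM in the b-gal+ libraries, against 436 and 566 CPM in the b-gal- libraries, 77.5 and 10.5 CPM in the EpCAM-positive libraries and 85.5 and 72.6 CPM in hepatocytes. The b-gal+ libraries lay far above the others, and the EpCAM-positive and hepatocyte libraries overlapped. The 18.8-fold difference between the gates (log2 4.23 ± 0.79, SE) had adjusted p = 0.011. It was lost without b-gal+ replicate 1 or 2 (0.0508 and 0.0679) and without b-gal- replicate 1 or 2 (0.0506 and 0.0542), and its log2 value stayed between 4.05 and 4.42 in every alternative.

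Cd207, or langerin, the mannose-binding receptor known from Langerhans cells, lies beside Clec4f and had 222 and 387 CPM in the b-gal+ libraries, against 99.6 and 51.1 CPM in the b-gal- libraries, 49.7 and 5.01 CPM in the EpCAM-positive libraries and 3.40 and 3.43 CPM in hepatocytes. The gates did not overlap, but the difference of 2.03 ± 0.94 had adjusted p = 0.17 and was not called. The gates were 4.08-fold apart, less than the EpCAM-positive libraries, where replicate 1 stood at 9.91 times replicate 2. The fit shares its spread over all groups, and without EpCAM-positive replicate 1 or 2, or with only the 4 libraries of the gates, Cd207 passed the threshold (lowest adjusted p = 0.0126).

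Cd209f and Cd209g are rodent relatives of the dendritic cell receptor DC-SIGN. Cd209f had 88.8 and 28.8 CPM in the b-gal+ libraries, against 2.65 and 1.47 CPM in the b-gal- libraries, 0.851 and 0 CPM in the EpCAM-positive libraries and 0.517 and 0.160 CPM in hepatocytes. It was 20.6-fold higher in b-gal+ than in b-gal- cells (log2 4.36 ± 0.68, adjusted p = 0.0053). Cd209g had 20.3 and 7.32 CPM in the b-gal+ libraries and 0.499 and 0.489 CPM in the b-gal- libraries, where it had 13 and 10 reads, and rose 12.8-fold (adjusted p = 0.0035). In b-gal+ cells replicate 1 stood at 3.08 times replicate 2 for Cd209f and 2.77 times for Cd209g, yet neither gene overlapped between the gates. The pair shares sequence: 29.8% of the 50-base stretches of Cd209f exons also occur in Cd209g, and 16.6% of those of Cd209g in Cd209f, so the split of reads between them is uncertain.

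**Figure D2:**
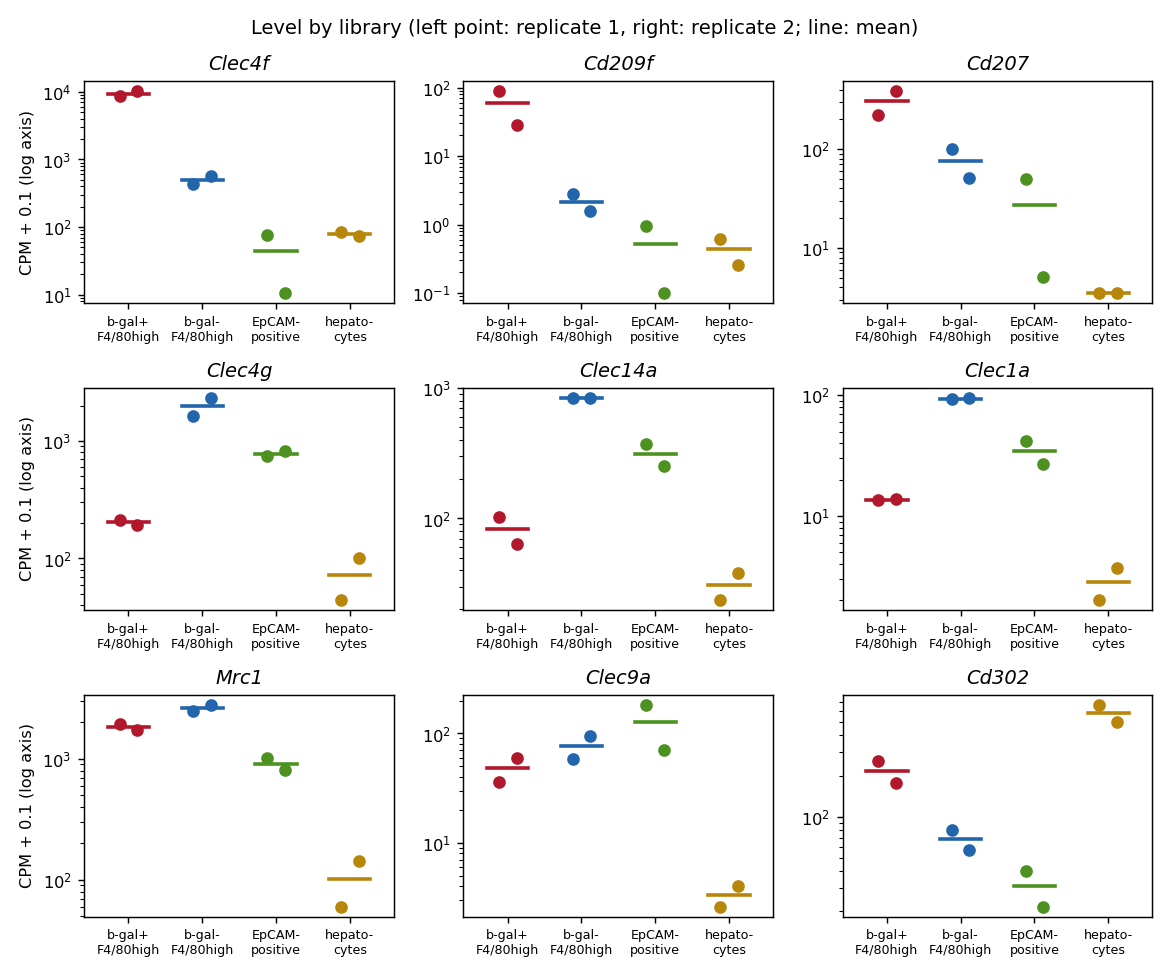
Level of 9 lectin genes in each library as CPM + 0.1 on a log axis; points are libraries, lines are group means, n = 2 per group. Clec4f, Cd209f and Cd207 are highest in both b-gal+ libraries, Clec4g, Clec14a and Clec1a in both b-gal- libraries, and Cd302 in both hepatocyte libraries.

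Of the other tested Cd209 genes, only Cd209b was called between the gates, and it fell. Cd209b (SIGN-R1), a receptor for bacterial polysaccharides, had 15.1 and 10.2 CPM in the b-gal+ libraries, against 95.9 and 70.0 CPM in the b-gal- libraries, 38.5 and 20.6 CPM in the EpCAM-positive libraries and 3.10 and 4.07 CPM in hepatocytes. It fell by 2.67 ± 0.36 on the log2 scale in b-gal+ cells (adjusted p = 0.0030). Cd209a, the closest mouse relative of DC-SIGN and a gene of dendritic cells, had 0 and 0.563 CPM in the b-gal+ libraries and 0.384 and 25.9 CPM in the b-gal- libraries; its gates overlapped and its difference of -2.73 ± 1.52 had adjusted p = 0.26. Cd209c had 0 and 0.282 CPM in the b-gal+ libraries against 0.346 and 2.45 CPM in the b-gal- libraries (adjusted p = 0.15), and Cd209d had 0.224 and 0.241 CPM against 0.922 and 2.30 CPM (adjusted p = 0.15). Both were near the floor of 3 reads in b-gal+ cells.

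Clec4g, or LSECtin, lies at the end of the same gene cluster and is known from sinusoidal endothelium. It had 214 and 194 CPM in the b-gal+ libraries, against 1622 and 2326 CPM in the b-gal- libraries, 741 and 822 CPM in the EpCAM-positive libraries and 44.4 and 102 CPM in hepatocytes. None of these 4 groups overlapped another. Clec4g fell by 3.25 ± 0.39 in b-gal+ cells (adjusted p = 0.0021). Its exons overlap the antisense gene Gm16553, and since the strand setting of the counting is not given in the sources used here, their reads cannot be told apart. Clec10a (MGL1), a galactose-type lectin of macrophages, had 17.2 and 16.5 CPM in the b-gal+ libraries and 10.4 and 6.60 CPM in the b-gal- libraries and was not called (0.98 ± 0.39, adjusted p = 0.12).

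Among the mannose receptor family, Mrc1 (CD206), which clears mannosylated glycoproteins and collagen fragments, was abundant in both gates. It had 1948 and 1749 CPM in the b-gal+ libraries, against 2466 and 2804 CPM in the b-gal- libraries, 1012 and 802 CPM in the EpCAM-positive libraries and 60.0 and 142 CPM in hepatocytes. The libraries of the gates did not overlap, but the difference of -0.51 ± 0.42 was not called (adjusted p = 0.45). Cd302, a small endocytic receptor, had 256 and 177 CPM in the b-gal+ libraries, against 80.2 and 56.3 CPM in the b-gal- libraries, and rose 3.15-fold (adjusted p = 0.017). It missed the threshold when b-gal+ replicate 1 (0.0996) or b-gal- replicate 2 (0.117) was left out. Mrc2 (Endo180), a collagen receptor of fibroblasts, had 5.55 and 0.322 CPM in the b-gal+ libraries and 6.68 and 2.49 CPM in the b-gal- libraries, with overlapping libraries and adjusted p = 0.47.

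The Dectin-1 group sits in the natural killer gene complex. Clec7a (Dectin-1), the β-glucan receptor, had 375 and 720 CPM in the b-gal+ libraries, against 174 and 97.1 CPM in the b-gal- libraries, and rose 3.98-fold (1.99 ± 0.50, adjusted p = 0.029). Clec12a, an inhibitory receptor for uric acid crystals, had 297 and 339 CPM in the b-gal+ libraries against 74.1 and 34.9 CPM in the b-gal- libraries and rose 6.18-fold (adjusted p = 0.033). Clec1b (CLEC-2), the receptor for podoplanin known from platelets, had 324 and 350 CPM in the b-gal+ libraries against 127 and 158 CPM in the b-gal- libraries. It rose 2.38-fold with the smallest error of the called members (log2 1.25 ± 0.16, adjusted p = 0.0027). The 9 platelet markers summed to 33.0 to 35.3 CPM in b-gal+, 21.8 to 37.5 CPM in b-gal-, 19.6 to 34.7 CPM in EpCAM-positive and 9.34 to 11.4 CPM in hepatocyte libraries. Of these markers, 1 and 2 were at 0 reads in the b-gal+ libraries, 0 and 2 in b-gal-, and 1 and 5 in hepatocyte libraries. In the EpCAM-positive libraries none was at 0 reads. The part of platelets in the Clec1b level was not tested. Clec7a missed the threshold when the second library of the b-gal+ (0.159), b-gal- (0.176) or hepatocyte group (0.0507) was left out. Clec12a missed it without b-gal+ replicate 1 or 2 (0.118 and 0.148), b-gal- replicate 1 or 2 (0.0504 and 0.192) or hepatocyte replicate 1 or 2 (0.0593 and 0.0605).

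Other members of the complex fell or did not pass. Clec1a, a receptor for fungal melanin that endothelium makes, had 13.5 and 13.6 CPM in the b-gal+ libraries, against 93.0 and 95.1 CPM in the b-gal- libraries, 42.1 and 26.9 CPM in the EpCAM-positive libraries and 1.92 and 3.59 CPM in hepatocytes. It fell by 2.75 ± 0.31 in b-gal+ cells (adjusted p = 0.0018). Clec2d, the ligand of an inhibitory natural killer cell receptor, had 24.9 and 34.1 CPM in the b-gal+ libraries against 56.7 and 66.1 CPM in the b-gal- libraries and fell by 1.06 (adjusted p = 0.020). Clec12b, an inhibitory receptor, had 0.403 and 0.282 CPM in the b-gal+ libraries against 1.61 and 1.71 CPM in the b-gal- libraries and fell by 1.36 (adjusted p = 0.011). Clec2d missed the threshold when b-gal+ replicate 1 (0.116) or either library of the b-gal- cells was left out (0.0588 without replicate 1 and 0.137 without replicate 2). Clec12b missed it with edgeR (0.0652) and DESeq2 (0.0589), and when replicate 2 of the b-gal+ (0.0895) or b-gal- cells (0.0761) was left out. Clec9a, which binds the actin of dead cells and marks cross-presenting dendritic cells, had 35.7 and 60.1 CPM in the b-gal+ libraries and 58.4 and 95.6 CPM in the b-gal- libraries, with adjusted p = 0.39. Its exons overlap those of Clec1b on the same strand, where the genes share 474 bases. Clec2i had 12.8 and 18.8 CPM in the b-gal+ libraries and 8.10 and 4.89 CPM in the b-gal- libraries (adjusted p = 0.072).

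In the Dectin-2 cluster 3 of 8 tested genes were called, and these rose in b-gal+ cells, as did 10.4% of all genes. Clec4n (Dectin-2), the receptor for fungal mannans, had 311 and 184 CPM in the b-gal+ libraries, against 57.1 and 21.0 CPM in the b-gal- libraries, and rose 6.82-fold (2.77 ± 0.79, adjusted p = 0.046). Clec4a3 had 189 and 197 CPM in the b-gal+ libraries against 55.0 and 22.1 CPM in the b-gal- libraries and rose 5.46-fold (adjusted p = 0.038). Clec4a1 had 157 and 181 CPM in the b-gal+ libraries against 58.9 and 26.8 CPM in the b-gal- libraries and rose 4.19-fold (adjusted p = 0.033). Clec4a1 and Clec4a3 belong, like Clec4a2, to the dendritic cell immunoreceptor genes. Clec4a2, with an inhibitory motif, had 103 and 85.9 CPM in the b-gal+ libraries against 35.7 and 10.8 CPM in the b-gal- libraries and missed the threshold (2.22 ± 0.69, adjusted p = 0.059), though it passed in 7 of the 15 alternatives, among them with DESeq2 (0.0156), without b-gal- replicate 1 (0.0357) and without EpCAM-positive replicate 1 or 2 (0.0437 and 0.0367). These genes did not overlap between the gates, and the b-gal- libraries differed 2.20- to 3.30-fold from each other for all 4.

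The calls of this cluster leaned on single libraries. Clec4n, with adjusted p just under the threshold, was lost without any 1 of the b-gal+, b-gal- or hepatocyte libraries (0.0546 to 0.255), with edgeR (0.0675), without a filter on low counts (0.0616) and with the deposited scaling (0.0556). Clec4a3 was lost without b-gal+ replicate 1 or 2 (0.140 and 0.155), b-gal- replicate 2 (0.218) or hepatocyte replicate 1 or 2 (0.0666 and 0.0679), with edgeR (0.0576) and without a filter (0.0503). Clec4a1 was lost without b-gal+ replicate 1 or 2 (0.118 and 0.154), b-gal- replicate 2 (0.199) or hepatocyte replicate 1 or 2 (0.0710 and 0.0726).

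Mincle, Clec4d and Clec5a overlapped between the gates, and the other genes below were not called. Clec4e (Mincle), a receptor for mycobacterial glycolipid and a nuclear protein of dead cells, had 68.3 and 19.4 CPM in the b-gal+ libraries and 202 and 22.4 CPM in the b-gal- libraries, with adjusted p = 0.70. Clec4d, which pairs with Mincle, had 27.5 and 21.2 CPM in the b-gal+ libraries and 47.3 and 5.48 CPM in the b-gal- libraries (adjusted p = 0.80). Clec5a, which signals through Tyrobp and lies elsewhere on chromosome 6, had 6.66 and 6.76 CPM in the b-gal+ libraries and 17.7 and 2.35 CPM in the b-gal- libraries (adjusted p = 1.0). In all 3 genes the b-gal- libraries stood on either side of at least 1 b-gal+ library. Clec4b1 had 7.87 and 9.69 CPM in the b-gal+ libraries and 7.22 and 5.38 CPM in the b-gal- libraries (adjusted p = 0.35). Clec4a4, a gene of conventional dendritic cells, had 1.65 and 1.53 CPM in the b-gal+ libraries and 0.499 and 0.294 CPM in the b-gal- libraries (adjusted p = 0.25). Of its 50-base exon stretches, 15.7% also occur in Clec4a2.

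Clec14a, a receptor of blood vessel endothelium with roles in vessel growth, had 103 and 63.9 CPM in the b-gal+ libraries, against 842 and 835 CPM in the b-gal- libraries, 372 and 253 CPM in the EpCAM-positive libraries and 23.6 and 38.0 CPM in hepatocytes. The order of the groups was the same as for Clec4g, with no overlap. Clec14a fell by 3.36 ± 0.33 in b-gal+ cells, the lowest value of any tested member (adjusted p = 0.0013). Clec16a, the intracellular protein, was not called (adjusted p = 0.076) and had 36.9 and 37.9 CPM in the b-gal+ libraries, 47.3 and 61.8 CPM in the b-gal- libraries, 37.8 and 33.0 CPM in the EpCAM-positive libraries and 60.5 and 69.5 CPM in hepatocytes. The secreted proteins were scarce: Clec3b (tetranectin, which binds plasminogen) had 0.671 and 0.0804 CPM in the b-gal+ libraries against 1.65 and 1.71 CPM in the b-gal- libraries (adjusted p = 0.055). It passed the threshold in 6 of the 15 alternatives, among them without b-gal+ replicate 1 (0.0433) and without EpCAM-positive replicate 1 or 2 (0.0330 and 0.0305). Clec11a, a growth factor of bone, had 0.939 and 0.322 CPM in the b-gal+ libraries against 0.960 and 0.587 CPM in the b-gal- libraries (adjusted p = 0.74).

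Of the 18 members that reached 1 CPM and were not called between the gates, 10 passed the threshold in at least 1 alternative. Beside Cd207, Clec4a2 and Clec3b, these included Cd209a (-5.15, adjusted p = 0.0225) and Cd209c (-2.22, 0.0212) without b-gal- replicate 1, the library with the lower level of both. Leaving out EpCAM-positive replicate 1 or 2 brought in Clec4a4 (0.0074 and 0.0089), Cd209d (0.0283 and 0.0269) and Clec2i (0.0420 and 0.0385). Clec10a passed without EpCAM-positive replicate 2 (0.0486), and Clec16a with the deposited scaling (-0.69, 0.0301).

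Neighbouring lectin genes moved in different directions. In the cluster on chromosome 8 (GRCm38, 3707064 to 4137707, 430.6 kb) 8 members lie in the order Clec4g, Cd209a, Cd209e, Cd209d, Cd209b, Cd209c, Cd209f and Cd209g. Cd209f and Cd209g at its one end rose, while Clec4g at the other end and Cd209b in the middle fell. The Dectin-2 cluster on chromosome 6 (122921848 to 123289870, 368 kb) holds 9 members, of which 8 were tested and 3 rose, beside 10.4% of all genes. In the natural killer gene complex (chromosome 6, 128662385 to 129472779, 810.4 kb) 3 of 10 tested members rose and 3 fell, beside 10.4% and 13% of all genes. There Clec1a, which fell, lies 9590 bases from Clec7a, which rose. The whole family has 25 members on chromosome 6 and 10 on chromosome 8.

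**Figure D3:**
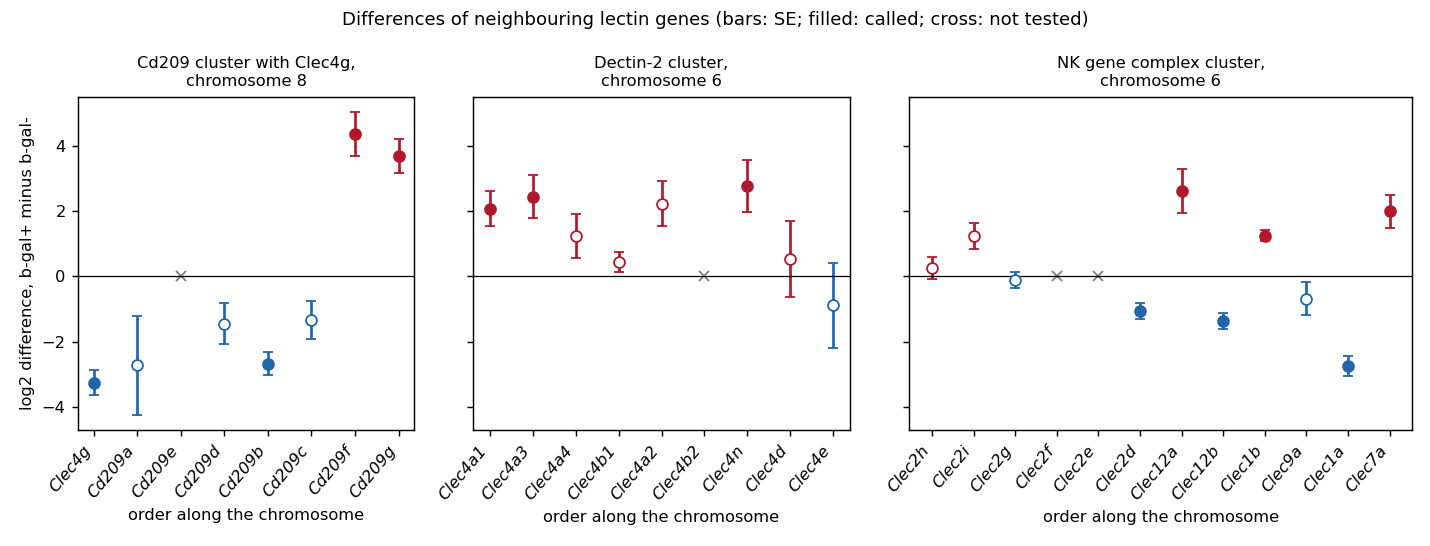
Difference on the log2 scale (CPM + 0.5, b-gal+ minus b-gal-) for the members of 3 gene clusters in chromosomal order; bars are SE, filled points were called and crosses were not tested. In the Cd209 cluster the points run between -3.25 for Clec4g and 4.36 for Cd209f, and in the Dectin-2 cluster 3 points are filled, all above 0.

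The genes through which these receptors signal were followed as a list of 26. For this and the other lists, the calls are those of the reported fit only. Of these, 14 rose and 1 fell in b-gal+ against b-gal- cells, 53.8% and 3.85% of the list, beside 10.4% and 13% of all genes, with a median of 1.69 over the list and -0.02 over all genes. Among them Tyrobp, an adaptor chain, had 804 and 706 CPM in the b-gal+ libraries against 205 and 78.9 CPM in the b-gal- libraries (2.56, adjusted p = 0.046). Vav1, an exchange factor, had 348 and 374 CPM in the b-gal+ libraries against 90.2 and 46.1 CPM in the b-gal- libraries (2.47, adjusted p = 0.023). Blnk, an adaptor protein, had 32.7 and 42.0 CPM in the b-gal+ libraries and 8.22 and 6.36 CPM in the b-gal- libraries (2.28, adjusted p = 0.0014). Fyn, a Src family kinase, was the gene that fell, with 133 and 114 CPM in the b-gal+ libraries against 514 and 570 CPM in the b-gal- libraries (-2.13, adjusted p = 0.0035). Most of these are expressed in myeloid cells of many kinds, and their rise stands beside the higher Kupffer cell marker sum of the b-gal+ libraries; the part of cell composition was not tested.

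Of 7 ligands of these receptors 3 were called (42.9%), and these fell in b-gal+ cells, as did 13% of all genes. The median was -1.43 over the ligands and -0.02 over all genes. Mmrn2, an endothelial matrix protein that binds Clec14a, had 82.1 and 54.4 CPM in the b-gal+ libraries against 658 and 751 CPM in the b-gal- libraries (-3.39, adjusted p = 0.0014). Ceacam1, a cell adhesion protein, had 34.1 and 21.8 CPM in the b-gal+ libraries against 89.5 and 78.3 CPM in the b-gal- libraries (-1.60, adjusted p = 0.0097), and S100a13 20.6 and 18.9 CPM against 42.2 and 52.4 CPM (-1.24, adjusted p = 0.0060). Pdpn, the podoplanin to which Clec1b binds, was scarce, with 0.894 and 0.402 CPM in the b-gal+ libraries, 1.11 and 0.147 CPM in the b-gal- libraries, 2.74 and 4.38 CPM in the EpCAM-positive libraries and 0.0738 and 0.0798 CPM in hepatocytes; it was chosen after its values were seen.

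Among 20 other genes with a C-type lectin domain, 4 rose and 5 fell in b-gal+ against b-gal- cells (20% and 25%, beside 10.4% and 13% of all genes), with a median of -1.03, against -0.02 over all genes. Cd72, an inhibitory receptor of B cells and macrophages, had 128 and 176 CPM in the b-gal+ libraries against 28.6 and 18.9 CPM in the b-gal- libraries (2.66, adjusted p = 0.016). Pla2r1, a mannose receptor relative that binds phospholipase, had 18.3 and 11.4 CPM in the b-gal+ libraries against 120 and 174 CPM in the b-gal- libraries (-3.28, adjusted p = 0.0017). Mgl2, the sister gene of Clec10a, had 2.50 and 0.684 CPM against 9.18 and 18.4 CPM (-2.84, adjusted p = 0.010), and Sele, the endothelial selectin, 4.92 and 0.644 CPM against 16.7 and 12.3 CPM (-2.57, adjusted p = 0.034). Clec10a and Mgl2 share 8.49% of the 50-base stretches of Clec10a.

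Against EpCAM-positive cells, 13 members rose and 5 fell in b-gal+ cells, 36.1% and 13.9% of those tested, beside 14.7% and 17.9% of all genes. The median was 0.60 over the members and -0.03 over all genes. Clec4f was 319-fold higher (8.32 ± 0.79, adjusted p = 0.0015), and Clec7a, Clec1b, Clec4n, Clec4a1, Clec4a3, Cd302, Cd209f and Cd209g also rose in every alternative tried. Among these the fold was 20.1 for Clec4n, 18.0 for Clec4a3, 10.9 for Clec4a1, 7.14 for Cd302, 7.11 for Clec7a and 6.88 for Clec1b. Cd207 rose 17.6-fold (adjusted p = 0.016), a call lost without b-gal+ replicate 1 or 2 (0.0535 and 0.0945) and with only the groups compared (0.0619). Clec12a rose 10.7-fold (adjusted p = 0.010), a call lost without b-gal+ replicate 2 (0.0614). Clec14a fell by 1.91 ± 0.33 in b-gal+ cells (adjusted p = 0.0061), also in every alternative. Clec4g fell by 1.94 (adjusted p = 0.011), a call lost without b-gal+ replicate 2 (0.0709). Clec1a fell by 1.28 (adjusted p = 0.021), a call lost without b-gal+ replicate 1 or 2 (0.0913 and 0.101) or EpCAM-positive replicate 1 (0.0706). The remaining calls were Clec4a2 (3.44, adjusted p = 0.010) and Clec2i (1.30, 0.048), higher, and Cd209b (-1.15, 0.048) and Cd209c (-2.03, 0.035), lower. Of 15 alternatives, Clec4a2 was lost in 2, Clec2i in 11, Cd209b in 10 and Cd209c in 9. Clec9a had its highest level in EpCAM-positive cells, at 183 and 71.0 CPM, and its difference of -1.29 ± 0.50 was not called (adjusted p = 0.094). The 13 dendritic cell markers summed to 2668 to 3760 CPM in b-gal+, 1300 to 1691 CPM in b-gal-, 1672 to 4202 CPM in EpCAM-positive and 258 to 314 CPM in hepatocyte libraries, with 1 marker at 0 reads in 1 hepatocyte library. One by one, 2 of them rose and 7 fell in b-gal+ against EpCAM-positive cells (15.4% and 53.8%, beside 14.7% and 17.9% of all genes). Their median was -2.62, against -0.03 over all genes. The part of these markers in the Clec9a level was not tested.

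Between b-gal- and EpCAM-positive cells, 6 members rose and none fell by limma, 16.7% and 0% of those tested, beside 5.63% and 6.57% of all genes. At an unadjusted p under 0.05 it was 1 member, Clec10a, that was lower (-1.25, adjusted p = 0.082). DESeq2 called 9 higher and 1 lower, and edgeR 2 higher and 0 lower. The 6 were Clec4f (4.09 ± 0.79, adjusted p = 0.025), Clec1b (1.53, 0.017), Cd209b (1.52, 0.041), Clec1a (1.47, 0.031), Clec14a (1.45, 0.036) and Clec12b (1.44, 0.022). The 4 endothelial receptors had almost the same ratio between the groups: 2.87-fold for Cd209b, 2.77-fold for Clec1a, 2.73-fold for Clec14a and 2.49-fold for Clec4g, which was not called (adjusted p = 0.074). None of the 6 calls held in all alternatives, and 0 members were called higher without b-gal- replicate 1, without b-gal- replicate 2 and without hepatocyte replicate 2. Clec1b was lost without these libraries (0.0836, 0.104 and 0.0503) and with only the groups compared (0.112). Clec4f was lost without any 1 of the b-gal+, b-gal- or hepatocyte libraries (0.0538 to 0.145).

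Hepatocytes held little of most lectins. Against them, 26 members rose and 3 fell in b-gal+ cells, 72.2% and 8.33% of those tested, beside 29.5% and 29.6% of all genes. In b-gal- cells 25 rose and 1 fell (69.4% and 2.78%, beside 33.5% and 29.7%), and in EpCAM-positive cells 21 rose and 3 fell (58.3% and 8.33%, beside 33.5% and 29.1%). These comparisons share the hepatocyte libraries. Medians were 3.55, 3.39 and 2.32 over the members and 0.10, 0.17 and 0.15 over all genes. Scaling matters here: with the factors of the deposited values in place of TMM, the median of all genes moved by 0.77, 0.96 and 1.17, against -0.13, -0.30 and -0.15 in the 3 comparisons without hepatocytes.

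Cd302 was the 1 member that fell in each of the other groups. It had 256 and 177 CPM in the b-gal+ libraries, 80.2 and 56.3 CPM in the b-gal- libraries and 39.9 and 21.6 CPM in the EpCAM-positive libraries, against 672 and 498 CPM in hepatocytes. It fell by 1.44 ± 0.35 in b-gal+ cells (adjusted p = 0.011), by 3.10 in b-gal- cells (0.00028) and by 4.27 in EpCAM-positive cells (8.5e-05). The call in b-gal+ cells was lost with the deposited scaling (-0.39, adjusted p = 0.36) and without b-gal+ replicate 2 (0.0637) or hepatocyte replicate 1 (0.0748). The other falls, of Clec2d (-1.22 in b-gal+ and -0.81 in EpCAM-positive cells) and Clec16a (-0.79 and -0.87), depended on the scaling: with the deposited factors Clec16a stood at 0.25 and 0.49, and Clec2d at -0.18 and 0.55. Clec2d in EpCAM-positive cells was also lost without EpCAM-positive replicate 1 or 2 (0.0502 and 0.0753) or hepatocyte replicate 2 (0.0942).

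Mrc1 and the endothelial receptors Clec1a, Clec4g, Clec14a and Cd209b stood out from the hepatocyte libraries most in b-gal- cells. There Clec1a was 30.0-fold higher (adjusted p = 2.3e-05), Clec4g 28.7-fold (5.9e-05), Mrc1 28.3-fold (8.2e-05), Clec14a 27.5-fold (3.1e-05) and Cd209b 20.3-fold (6.5e-05). In EpCAM-positive cells the same 5 genes were 10.9-, 11.5-, 9.71-, 10.1- and 7.07-fold higher than in hepatocytes, all called in every alternative tried. In b-gal+ cells Clec4f was 118-fold, Clec12a 93.5-fold, Clec4a3 87.6-fold, Clec7a 83.2-fold and Clec4n 78.9-fold higher than in hepatocytes, again in every alternative. Mrc1 was higher there by 4.31 on the log2 scale, against 2.16 for Clec1a, 1.67 for Cd209b, 1.59 for Clec4g and 1.42 for Clec14a. Of these calls, those of Clec4g and Clec14a were lost in some alternatives. Clec4e, with 9 and 0 reads in the hepatocyte libraries, rose against them in b-gal+ (adjusted p = 0.0087), b-gal- (0.0042) and EpCAM-positive cells (0.0088). It was lost in b-gal+ cells without b-gal+ replicate 1 (0.0580) or hepatocyte replicate 2 (0.0664), and in EpCAM-positive cells without EpCAM-positive replicate 1 (0.0533) or hepatocyte replicate 2 (0.0672).

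Several members differed between replicates, Clec4e in all 3 antibody-gated groups, and Clec4d and Clec5a mainly in b-gal- and EpCAM-positive cells. Clec4e had a replicate 1 level of 3.52 times replicate 2 in b-gal+ cells, 9.03 times in b-gal- cells and 7.58 times in EpCAM-positive cells. For Clec4d these ratios were 1.30, 8.63 and 8.30, and for Clec5a 0.986, 7.54 and 6.57. The neutrophil and monocyte gene S100a8, chosen after its values were seen, had 29.6 and 2.41 CPM in the b-gal+ libraries, 83.2 and 3.13 CPM in the b-gal- libraries and 92.3 and 2.88 CPM in the EpCAM-positive libraries. The 12 monocyte and neutrophil markers had sums of 3518 and 580 CPM (b-gal+), 9193 and 1171 CPM (b-gal-), 5164 and 1177 CPM (EpCAM-positive) and 6105 and 5858 CPM (hepatocytes), none at 0 reads; the list holds Fn1, which hepatocytes secrete. Its part in the Clec4e values was not tested. Cd209a and Cd209c ran the other way, with Cd209a at 6.23 CPM in EpCAM-positive replicate 1 and 31.0 CPM in replicate 2. Replicate 1 was the higher one in all 3 antibody-gated groups for 13 of the 36 tested members (36.1%) and for 22.5% of all genes, and replicate 2 for 2 members (5.56%) and 20.5% of all genes.

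**Figure D4:**
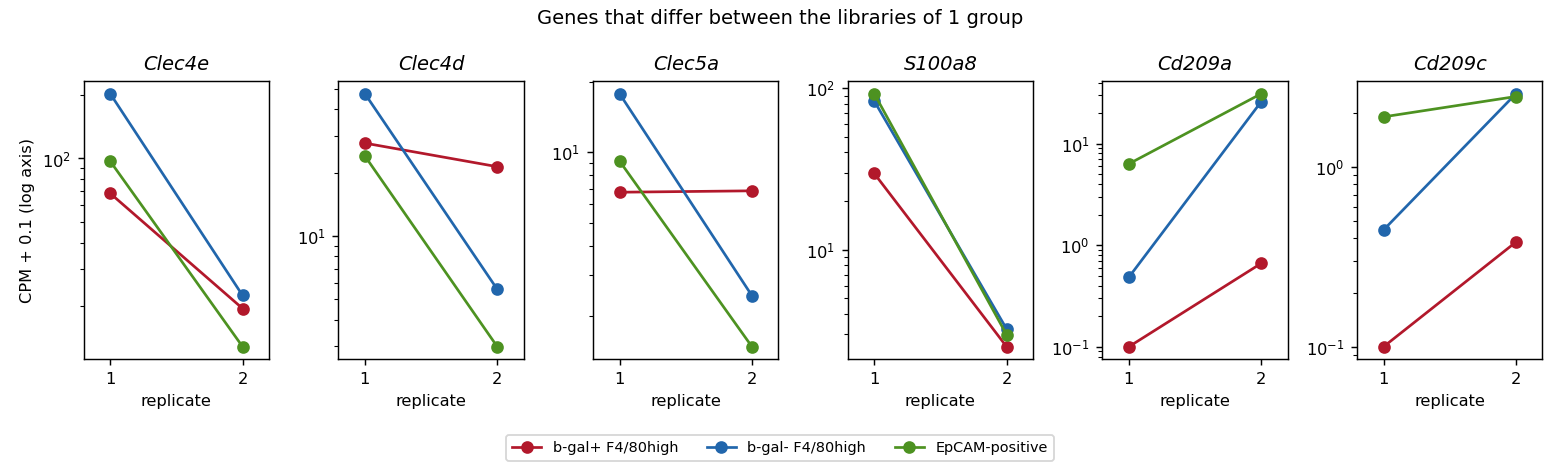
Level of 6 genes in the libraries of the 3 antibody-gated groups as CPM + 0.1 on a log axis, each line joining the 2 libraries of 1 group. Clec4e, Clec4d, Clec5a and the neutrophil gene S100a8 are lower in replicate 2 of b-gal- and EpCAM-positive cells, whereas Cd209a and Cd209c are higher there.

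Levels relative to cell markers of the same library gave a further description; the genes were chosen after their values were seen, and no test was run. Clec1a ranged over the 8 libraries from 1.92 to 95.1 CPM, but per 100 CPM of the sinusoidal endothelial markers it ranged only from 0.206 to 0.291, a 1.42-fold span that takes in the hepatocyte libraries. The same ratio spanned 3.51 to 6.61 for Clec4g, 1.33 to 3.09 for Clec14a and 0.166 to 0.406 for Cd209b. For Clec4g and Clec14a the b-gal+ libraries were among the lowest, at 3.51 and 4.03 and at 1.70 and 1.33. Mrc1 stood apart, with 32.0 and 36.4 per 100 CPM of endothelial markers in b-gal+ cells and 6.45 to 8.13 in the 6 other libraries. Clec4f per 100 CPM of Kupffer cell markers was 24.8 and 36.6 for the b-gal+ libraries, 12.3 and 21.7 for the b-gal- libraries, 6.34 and 2.26 for the EpCAM-positive libraries and 10.0 and 8.64 for the hepatocyte libraries. Clec1b per 100 CPM of the same markers was lower in b-gal+ cells, at 0.941 and 1.25, than in b-gal- cells, at 3.57 and 6.03. The same held for Cd207 (0.644 and 1.38 against 2.81 and 1.95), Clec7a (1.09 and 2.58 against 4.91 and 3.71) and Clec12a (0.864 and 1.21 against 2.09 and 1.34). Clec4n overlapped between the gates, and Cd209f was higher in b-gal+ cells (0.258 and 0.103 against 0.0747 and 0.0561).

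**Figure D5:**
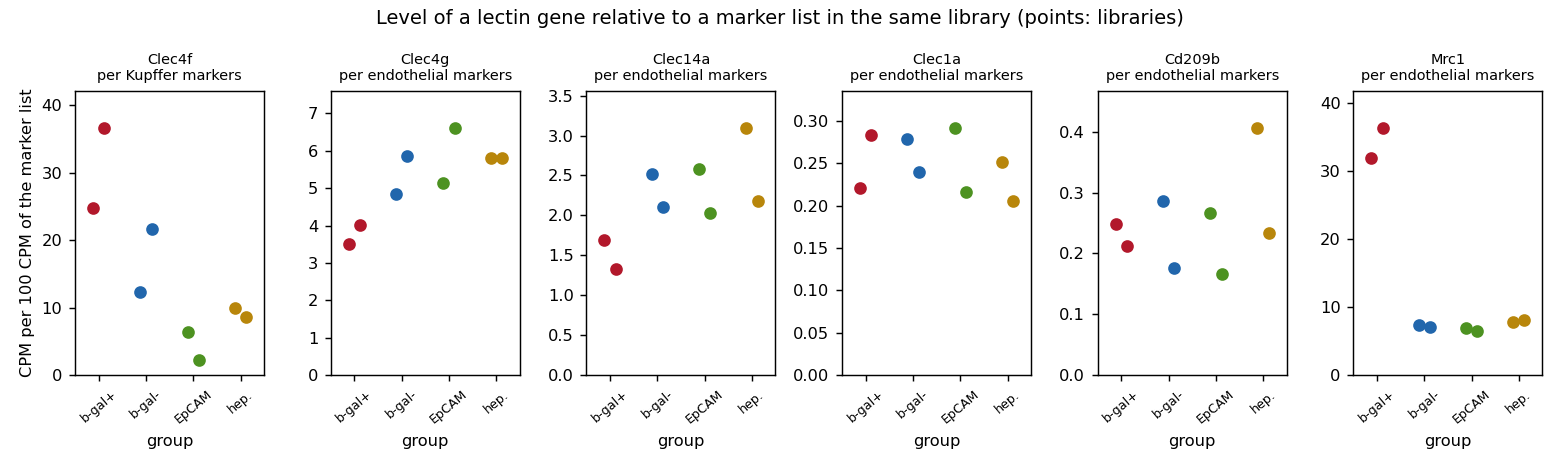
CPM of 6 lectin genes per 100 CPM of a marker list of the same library, Kupffer cell markers for Clec4f and sinusoidal endothelial markers for the others; points are libraries, axes start at 0. Clec1a is nearly level over all 8 libraries, between 0.206 and 0.291, and Mrc1 is highest in the b-gal+ libraries, at 32.0 and 36.4.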

How the data were processed

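RNA of 8 libraries (4 groups, n = 2) was sequenced. Per the submitters' processing notes, reads were counted with HTSeq on GRCm38.p4 (mm10); aligner, annotation, versions and scaling step are not given in the sources used here. For hepatocyte replicate 1 the authors deposited plain read counts by gene symbol. For 7 libraries they deposited another unit, counts multiplied by 1 factor a library (1.08 to 1.54), as found from the values. Dividing by the smallest step gave whole reads for 100% of values within 0.01. Rows with a date in place of a symbol (14 per file, 0.0514% to 0.182% of reads) were left out.

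Recovered reads were scaled with TMM (edgeR 4.0.16; factors 0.527 to 1.48), filtered with the default filter of edgeR, and tested two-sided on log2(CPM + 0.5) by limma 3.58.1 (mean trend), all 8 libraries in 1 fit and Benjamini-Hochberg adjustment over 14404 genes. The log-scale test is the main one because the deposited unit is no plain count in 7 files. Alternatives were the deposited scaling, no filter, a pseudocount of 2, edgeR's quasi-likelihood test and DESeq2 1.42.0 on the recovered reads, only the groups compared, a replicate block and leaving out each library. The procedure was also run on simulated counts with the same spread for every gene. Spread differs between genes in these libraries, so that run does not show how the fit behaves on them. Where a gene is near 0 reads, its fitted difference moves with the pseudocount. Reads are not independent molecules, so the floor of 3 reads covers counting error only.

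The members, the gene lists, the alternatives and the rule for named genes were chosen with earlier results of these data known. Named are all members with a mean of at least 1 CPM in a group, up to 4 called genes of each list with at least 10 CPM (largest difference first), and Adgre1, Epcam, Alb and Trem2 as check genes. Some genes that the rule would name are not reported here. Alb had at most 4704 CPM outside hepatocytes, where it had 126463 and 202801 CPM, and Trem2 had 96.9 and 117 CPM in b-gal+ and 41.0 and 4.55 CPM in b-gal- cells. Other marker lists (T, NK and B cells, hepatocytes, cholangiocytes, stellate cells) summed to 18.7 to 25.0, 309 to 697, 142 to 752 and 331 to 1179 CPM in b-gal+ and to 30.0 to 62.0, 185 to 397, 151 to 1342 and 1085 to 1416 CPM in b-gal- libraries. Positions and exon lengths are from GENCODE M21 (GRCm38), with 1 gene for each of the 43 members.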

Additional observations from a re-analysis of the deposited data

How the results depend on the processing

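The 137 results, all of members of the family, were recomputed under 15 alternatives. The exceptions were Cd209c in 2 comparisons and Clec12b in 1, which did not pass the filter on low counts with only the groups compared. Calls of genes from the other lists were not followed under these alternatives. Of 2052 values, 1770 kept their direction and their side of the threshold, 234 no longer passed it, 30 newly passed it and 18 changed sign. Having 2 libraries per group limits every test: leaving out 1 library moved the members called higher in b-gal+ over b-gal- cells between 3 and 15 (10 in the reported fit) and those called lower between 4 and 8 (6). The same ranges were 9 to 14 (13) and 1 to 7 (5) for b-gal+ over EpCAM-positive cells, 0 to 10 (6) and 0 to 3 (0) for b-gal- over EpCAM-positive cells, 19 to 26 (26) and 2 to 4 (3) for b-gal+ cells over hepatocytes, 18 to 26 (25) and 1 to 1 (1) for b-gal- cells over hepatocytes, and 13 to 26 (21) and 2 to 3 (3) for EpCAM-positive cells over hepatocytes. The lone library left in an arm is then assumed to vary like the other groups.

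Among the other settings, those that moved a count by over 1.5 times were a pseudocount of 2, with 3 lower for b-gal+ over EpCAM-positive cells, and, for b-gal- over EpCAM-positive cells, edgeR (2 higher), only the groups compared (0 higher), the replicate block (11 higher), no filter (1 lower) and DESeq2 (1 lower). Likewise, with the deposited scaling no member was lower in b-gal+ cells than in hepatocytes (0) and 1 in EpCAM-positive cells. Smaller moves included 15 higher for b-gal+ over b-gal- cells with only the groups compared. The replicate number as a block gave 11 higher and 7 lower members for b-gal+ over b-gal- cells; same-numbered libraries deviated together with r of 0.177 to 0.494 over the 6 pairs of groups, but with only 2 numbers and no label for a shared batch the block stays an alternative.

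Signs changed under the deposited scaling for Clec16a against hepatocytes in b-gal+ (0.25) and EpCAM-positive cells (0.49), for Clec2d in EpCAM-positive cells (0.55) and for Clec5a in b-gal+ over b-gal- cells (-0.14). In that last comparison Clec5a also changed with a pseudocount of 2 (-0.088), edgeR (-0.58) and DESeq2 (-0.48), and Clec4d with edgeR (-0.12) and DESeq2 (-0.01). Without 1 library the signs of Clec11a (-0.61 to 0.22), Clec4d (-0.95 to 2.05), Clec4e (-2.45 to 0.69), Clec5a (-1.33 to 1.34) and Mrc2 (-2.49 to 0.42) were not stable in b-gal+ over b-gal- cells. The cause of these changes was not tested.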
